A study of Homo sapiens with 20 samples.

Results

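The regions described here are stretches of the HCT116 genome that carried a called peak of H3K4me1, monomethylated lysine 4 of histone H3, in MLL4-knockout (KO) cells and none in wild-type (WT) cells, and that overlapped no H3K4me3 peak. They are called gained regions below, where gained means called in KO and not in WT. The H3K4me1 peaks of KO and WT cells on chromosomes 1 to 22 were merged where they shared at least 1 bp, which gave 130806 regions. Of these, 8375 (6.4%) held a KO peak and no WT peak, 1612 of them overlapped H3K4me3 in at least 1 of 4 libraries, and the other 6763 (5.17% of all regions) are the gained regions. They were selected on their H3K4me1 calls in KO and WT and on the absence of H3K4me3 calls, so those values describe them and are not tested. The other distal regions, also without H3K4me3, were 6201 shared by both genotypes and 91724 found in WT only.

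H3K4me1 is laid down at enhancers mainly by MLL4 (encoded by KMT2D) and its relative MLL3, and it also flanks promoters, where H3K4me3 marks the start itself. H3K27ac is found at enhancers and promoters that are in use. MLL1 (KMT2A) is another methyltransferase of the same family that acts largely at promoters and is not the product of the deleted gene.

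HCT116 is an established human colorectal carcinoma line. The study profiled MLL4-KO and WT HCT116 cells by ChIP-seq, to examine how MLL4 and the transcription factor p53 work together on chromatin. H3K27ac, H3K4me3 and p53 had 2 libraries in KO and 2 in WT, while H3K4me1, MLL1 and MLL4 had 1 in KO and 1 in WT, so differences in the last 3 have no replicate check. Both genotypes received the same culture with no treatment named, and neither the number of KO clones nor the way the knockout was made is given in the sources used here. Whether replicates were separate cultures is not stated, and p-values here reflect no more than the spread among the libraries, possibly technical. Read depth is not known; each value below is a called peak or the authors' fold enrichment for it, and 95% Wilson intervals cover counting error over regions only.

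MLL4 had 257 peaks in KO and 55887 in WT. H3K4me3 lay within 1 kb of an end of 3 of 6 epithelial marker genes (CDH1, ELF3 and EPCAM) in both KO libraries and of 3 and 4 in the WT libraries, and of 1 of 6 blood marker genes, SPI1, in all 4 libraries. CDX1 and HNF4A had none in any library. H3K27ac was less selective, at 4 and 3 of the 6 epithelial genes in KO, against 5 and 5 in WT, and at 4 and 4 of the 6 blood genes in KO, against 4 and 5 in WT. The H3K4me1 list was shorter in KO than in WT, with 42864 against 122917 peaks, and a −log10 q-value of 5 or more was reached by 9.64% of the KO peaks, against 40.1% of the WT peaks. The KO list also stood apart on chromosome 1, which held 26 of its 50 peaks of highest fold, against 1 of 50 in WT and 0 to 11 of 50 in the other 16 lists. Results over the gained regions are therefore also given without that chromosome where it changes them.

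A gained region was in each case a single KO peak. RefSeq promoter windows, which run from 250 bases before to 50 bases after a gene's start, lay wholly inside 23 of them. These held 27 windows, of which 17 belonged to coding genes. The 4 of these coding genes whose region had the highest H3K4me1 fold are printed to show both kinds of start that took H3K4me1 in KO without H3K4me3 in any library: CpG-rich starts and a CpG-poor one. The sequences are from RefSeq on GRCh38.p14, 5′ to 3′ on the gene's strand, with each CG in capitals.
NRSN1: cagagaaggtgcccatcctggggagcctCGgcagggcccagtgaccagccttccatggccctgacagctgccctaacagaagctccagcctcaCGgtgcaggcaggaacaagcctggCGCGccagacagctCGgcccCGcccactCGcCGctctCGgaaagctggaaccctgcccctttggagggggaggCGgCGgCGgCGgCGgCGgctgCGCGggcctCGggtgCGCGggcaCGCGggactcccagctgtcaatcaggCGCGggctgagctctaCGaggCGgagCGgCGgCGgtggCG
PALM2AKAP2: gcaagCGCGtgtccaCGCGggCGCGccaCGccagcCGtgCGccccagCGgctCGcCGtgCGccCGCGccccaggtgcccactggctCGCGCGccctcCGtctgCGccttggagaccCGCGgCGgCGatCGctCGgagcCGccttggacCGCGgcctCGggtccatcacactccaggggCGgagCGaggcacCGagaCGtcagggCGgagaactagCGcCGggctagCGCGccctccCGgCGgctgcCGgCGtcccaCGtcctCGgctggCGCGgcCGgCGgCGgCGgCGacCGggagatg
SLC9A4: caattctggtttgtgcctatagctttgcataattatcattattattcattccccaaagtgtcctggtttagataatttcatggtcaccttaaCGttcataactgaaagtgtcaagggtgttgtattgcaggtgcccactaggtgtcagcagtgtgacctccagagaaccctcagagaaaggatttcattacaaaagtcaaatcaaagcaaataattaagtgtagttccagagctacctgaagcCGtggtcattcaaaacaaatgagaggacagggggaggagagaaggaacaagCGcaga
ALKAL2: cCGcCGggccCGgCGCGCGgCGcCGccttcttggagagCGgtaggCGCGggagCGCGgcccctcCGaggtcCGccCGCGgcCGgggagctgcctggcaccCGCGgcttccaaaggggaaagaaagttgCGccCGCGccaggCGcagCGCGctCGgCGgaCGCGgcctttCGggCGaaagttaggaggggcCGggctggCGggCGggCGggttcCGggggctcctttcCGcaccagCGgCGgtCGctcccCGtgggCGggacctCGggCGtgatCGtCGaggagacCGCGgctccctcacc

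The NRSN1 window (chr6:24125965-24126264, plus strand) holds 30 CG pairs, that of PALM2AKAP2 (chr9:109779948-109780247, plus strand) 53, that of ALKAL2 (chr2:288042-288341, minus strand) 49 and that of SLC9A4 (chr2:102472976-102473275, plus strand) 3. The H3K4me1 folds of their regions in KO were 5.78 at NRSN1, 5.28 at PALM2AKAP2, 4.40 at ALKAL2 and 5.09 at SLC9A4, which encodes a sodium/hydrogen exchanger. At the CpG-rich starts p53 was called in both WT libraries, with folds of 12.1 and 26.8 at NRSN1, 7.49 and 34.8 at PALM2AKAP2 and 13.6 and 26.1 at ALKAL2. In KO it was called at ALKAL2 in both libraries (6.13 and 8.89), at PALM2AKAP2 in replicate 2 (4.44) and at NRSN1 in neither. The ALKAL2 region also had MLL1 in KO (4.53) and not in WT. H3K27ac was called there in both WT libraries (3.91 and 4.81) and in neither KO library. NRSN1 and PALM2AKAP2 had no H3K27ac or MLL1 peak, and SLC9A4 had no peak of any other target. The 27 windows fell into 2 kinds, 14 with 0 to 3 CG pairs and 12 with 29 to 59, and the median over all 33725 windows was 14. Among the 17 of coding genes, 7 were of the first kind and 9 of the second. The AP-1 motif, searched as TGAGTCA and TGACTCA, which are each other's reverse complement and so cover both strands, was in 1 of the 27 windows (3.70%) and in 4.91% of all windows. Outside chromosome 8, whose windows were not used here, 114 of 6439 gained regions (1.77%) touched a promoter window, against 5.90% of shared and 2.74% of WT-only distal regions. Widths were not matched in this count. Their medians over all chromosomes were 397 bp for gained, 1731 bp for shared and 754 bp for WT-only regions, so the shares do not compare them per base.

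The gained regions were short and weak. Their width had a median of 397 bp, with 5% under 206 bp, 5% over 1088 bp and the widest at 5451 bp. Their fold enrichment had a median of 3.26, an interquartile range of 3.13 to 3.497 and a maximum of 25.3. KO peaks in shared distal regions had a median width of 546 bp and a median fold of 3.399, and KO peaks with H3K4me3 in shared regions had 1133 bp and 4.05. The distal peaks of both kinds thus lay near the lower end of the KO list. A −log10 q-value of 2 or more was reached by 1606 gained regions (23.7%), and a value of 5 or more by 67 (0.991%), against 37.4% and 1.67% of the KO peaks in shared distal regions.

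**Figure D1:**
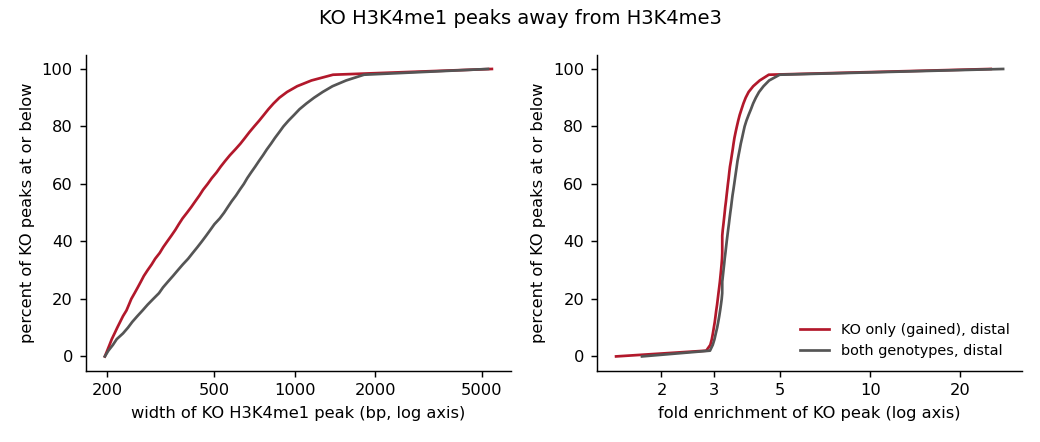
Cumulative percent of KO H3K4me1 peaks by width in bp (left) and by the authors' fold enrichment (right), both on log axes, for distal peaks found in KO only and for distal peaks in regions of both genotypes. The curves of gained peaks lie to the left, with medians of 397 bp and 3.26-fold against 546 bp and 3.399-fold.

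The gained regions made up 15.8% of all KO H3K4me1 peaks and 52.2% of the 12964 distal H3K4me1 regions of KO. By the rule they overlapped no WT H3K4me1 peak, and many lay within a few kb of one. The WT list is dense, with 122917 peaks over 7.46% of the chromosomes. The distance from other sites to a WT peak was not computed, so closeness is not shown to be particular to gained regions. The distance to the nearest WT peak had a median of 3585 bp, 1587 regions (23.5%) lay under 1 kb from one, and 1213 (17.9%) lay 20 kb or more away. At the edge of the rule, 231 gained regions (3.42%) were within 100 bp of a WT peak, and 291 shared distal regions (4.69%) had at most 100 bp in common between the genotypes. Towards H3K4me3, 243 gained regions (3.59%) were within 1 kb of a peak.

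More of the gained regions than of the other distal regions lay in the bodies of genes, on the downstream side of starts that carry H3K4me3. Of 6763, 4439 (65.6%, 95% interval 64.5 to 66.8) overlapped a protein-coding gene, against 52.9% (51.7 to 54.2) of shared and 54.8% (54.5 to 55.1) of WT-only distal regions. A marked start is taken here as the start of a coding gene, of known strand, with an H3K4me3 peak within 1 kb in all 4 libraries; there were 9202 among 15101 such genes outside chromosome 8, whose starts were not used here. Of the 6439 gained regions on the same chromosomes, 2738 (42.5%, 41.3 to 43.7) lay inside a gene with a marked start, against 28.7% (27.5 to 29.9) of shared and 31.7% (31.4 to 32.0) of WT-only distal regions, while the bodies of these genes cover 21.4% of the chromosomes.

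Measured from the nearest marked start, 1376 gained regions (21.4%, 20.4 to 22.4) lay within 10 kb, against 12.8% (11.96 to 13.7) of shared and 7.80% (7.62 to 7.98) of WT-only distal regions. The downstream side held 1075 of the 1376 gained regions (78.1%, 75.9 to 80.2), against 60.5% (57.0 to 63.9) of shared and 51.8% (50.6 to 52.9) of WT-only regions. The bin from 4 to 6 kb downstream held the most, with 434 gained regions (6.74%), against 2.80% of shared regions. On the upstream side, 2.58% of gained and 1.82% of shared regions lay under 5 kb from the start, and 2.097% and 3.23% at 5 to 10 kb.

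The distance to marked starts depends on the rule, which removed each merged region that touched H3K4me3, and merged shared regions are wide. KO peaks were therefore also compared without merging: the gained peaks against 8421 KO peaks that overlapped a WT peak and did not themselves overlap H3K4me3. In that comparison the share within 10 kb of a marked start was 21.4% of gained and 21.8% of the other peaks (21.5% at equal width and fold). The downstream side held 78.1% of the near gained peaks, against 65.9% (65.5% at equal width and fold), and 42.5% of gained peaks lay inside a gene with a marked start, against 33.96% (34.5%). The values for the side and the gene body thus stayed apart, while those for nearness to starts came close. These shares come from 1 H3K4me1 library per genotype and could not be tested over samples, and the analysis of marked starts was added after the values were seen. Without chromosome 1 the downstream share was 77.9%. It did not hold for the peaks of lowest q-value: of the 67 gained regions with a −log10 q-value of at least 5, 41.8% lay in coding genes, and of the 6 of them within 10 kb of a marked start 16.7% were downstream.

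**Figure D2:**
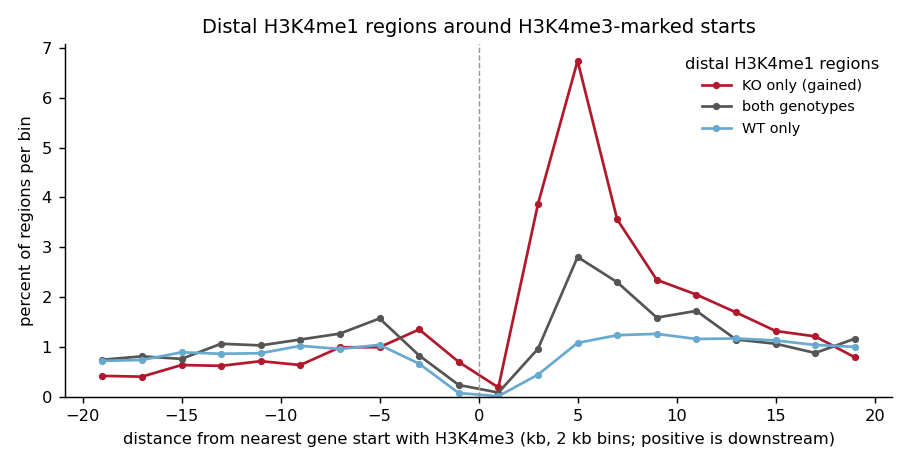
Percent of distal H3K4me1 regions in each 2 kb bin (vertical axis) by distance in kb from the nearest gene start with H3K4me3 in all 4 libraries (horizontal axis, positive downstream), for regions found in KO only, in both genotypes and in WT only. The gained regions peak at 6.74% in the bin from 4 to 6 kb downstream, where shared regions stand at 2.80%.

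Other targets at the 1075 gained regions downstream within 10 kb were sparse as well. H3K27ac overlapped 2.33% and 2.05% of them in the KO libraries, against 5.12% and 9.86% in the WT libraries, and MLL1 overlapped 1.02% in KO, against 0.372% in WT. p53 overlapped 0.744% and 2.23% in KO, against 1.58% and 1.86% in WT. Among the 5063 gained regions 10 kb or more from a marked start, p53 was more frequent in each library, at 2.94% and 8.67% in KO, against 6.83% and 7.58% in WT. The median width was 479 bp downstream within 10 kb and 380 bp at 10 kb or more, with median folds of 3.27 and 3.26.

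By nearest gene end within 100 kb, 5665 gained regions (83.8%) were assigned to 4302 coding genes, 22.5% of 19126. Of these genes 3315 (77.1%) had 1 gained region and 29 had 5 or more. WT-only distal regions were also assigned to 3864 of the 4302 genes (89.8%), and to 76.9% of all coding genes. Shared distal regions were assigned to 1289 of them (30.0%), and to 21.3% of all coding genes.

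The 20 genes with the most gained regions had 5 to 10 each, 124 in all, and 105 of the 124 lay inside the gene. H3K4me3 was called within 1 kb of an end of 19 of the 20 genes in all 4 libraries, against 60.2% of all coding genes, and the exception was HUNK, a protein kinase of the AMPK-related family. PPP2R2A, a regulatory subunit of protein phosphatase 2A that selects its substrates, had the most, with 10 gained regions over 153.5 kb of chromosome 8, 8 of them inside the gene. Their H3K4me1 folds in KO ran from 2.94 to 3.596, and none overlapped H3K27ac or MLL1 in any library. No shared distal region was assigned to PPP2R2A, and 15 WT-only ones were.

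HUNK had 9 gained regions with folds of 3.08 to 4.40, of which 1 overlapped H3K27ac in KO replicate 2 and none did in the other 3 libraries. SCAF4, which binds the tail of RNA polymerase II and restrains early termination, lies beside HUNK on chromosome 21 and had 7, with folds of 2.97 to 3.19. ASPH, which hydroxylates aspartate and asparagine residues, had 7, of which 1 overlapped H3K27ac in each KO library and 1 overlapped MLL1 in KO, with none in WT. Apart from the highest at HUNK, these folds lie below the 95th percentile of the gained regions, 4.14.

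The next group had 6 each. It held PPP4R2, a regulatory subunit of protein phosphatase 4; RBM39, a splicing factor; EIF3H, a subunit of translation initiation factor eIF3; PRRC2C; NFAT5, the transcription factor of the osmotic stress response; WAC; PDLIM5, an actin-associated protein; VAPB, a tether between the endoplasmic reticulum and other membranes; and SLMAP. EIF3H had folds of 2.96 to 3.29, with H3K27ac on 1 region in KO replicate 2 and on 1 in WT replicate 1. VAPA, the paralogue of VAPB, LSM14A of the RNA processing bodies, DOCK1, an activator of Rac, PHF21A of the LSD1 corepressor complex, PRKACB, a catalytic subunit of protein kinase A, and HMGA2, an architectural chromatin protein, had 5 each. At 15 of the 20 genes no gained region overlapped H3K27ac in either KO library. PRKACB stood apart, since 2 of its 5 overlapped H3K27ac in KO replicate 1 and 4 in KO replicate 2, against 0 in both WT libraries. Neighbouring regions among these 4 had the same H3K27ac fold in KO replicate 2, 10.3. They may overlap a single H3K27ac peak, so the 4 are not separate observations. KMT2D had no gained region assigned.

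Gene lists were set beside the 22.5% of all coding genes that had a gained region; the lists of phosphatase 2A and eIF3 subunits were drawn up because PPP2R2A and EIF3H were known to lead, so their counts are no independent evidence. Among phosphatase 2A subunits 9 of 15 genes had 1 (60.0%), with 18 gained regions in all, of which PPP2R2A held 10 and PPP2R5E 1. Among eIF3 subunits it was 3 of 13 (23.1%), with 6 of the 8 gained regions at EIF3H and 1 at EIF3E. Among H3K4 methyltransferase complex genes it was 7 of 18 (38.9%), with 2 gained regions each at PAXIP1, a subunit of the MLL3 and MLL4 complexes, and at DPY30, a subunit common to the family, whose folds were 3.42 and 4.42. Among blood marker genes it was 8 of 19 (42.1%), with 3 each at RUNX1 and ITGAM. The share was 6 of 20 (30.0%) for genes of mesenchyme and the TGF-beta response, led by the collagen genes COL1A2 with 4 and COL1A1 with 3, 6 of 22 (27.3%) for colon epithelium and Wnt genes, led by HNF4G and ZNRF3, and 6 of 24 (25%) for neuronal and synaptic genes, led by SYT1 and PCDH7.

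It was 5 of 22 (22.7%) for interferon and NF-kB genes, led by STAT2 and IFNE, 2 of 20 (10.0%) for AP-1 and immediate early genes, namely ATF3 and DUSP6, and 2 of 20 (10.0%) for p53 targets, namely MDM2 and CCNG1. As a share of the distal KO regions assigned to a list, gained regions made up 81.8% for H3K4 methyltransferase complexes (9 of 11), 75% for phosphatase 2A, 66.7% for eIF3, 54.5% for mesenchyme and TGF-beta, 52.2% for blood markers, 50% for neuronal and 40% for interferon genes, against 51.1% over all coding genes. They made up 28.6% for p53 targets (2 of 7), 27.6% for colon epithelium and Wnt genes (8 of 29) and 20% for AP-1 genes (2 of 10). Most of these shares rest on few regions.

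H3K27ac was rare at the gained regions in both genotypes. It overlapped 190 of 6763 (2.81%) in KO replicate 1 and 150 (2.22%) in KO replicate 2, against 382 (5.65%) in WT replicate 1 and 737 (10.9%) in WT replicate 2. The groups did not overlap: the mean was 2.51 ± 0.418% in KO and 8.27 ± 3.71% in WT (SD, n = 2 each), a difference of −5.76 percentage points (two-sided exact permutation p = 0.333, the smallest that 2 against 2 libraries allow). The H3K27ac lists differed in length in the same direction. KO lists held 64367 and 61228 peaks covering 2.15% and 1.77% of the chromosomes, against 137489 and 196645 peaks covering 5.32% and 6.84% in WT. With all 4 lists held to their 61228 peaks of lowest q-value, the shares were 2.63% and 2.22% in KO, against 2.38% and 3.79% in WT, and the groups then overlapped.

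Compared with the shared distal regions, the gained ones had less H3K27ac in every library. The shared regions overlapped H3K27ac at 34.2% and 35.1% in KO, against 51.4% and 55.5% in WT. Gained minus shared was −38.7 percentage points on average over the 4 libraries, with a range of −45.8 to −31.4 (two-sided exact sign-flip permutation p = 0.125, the smallest that 4 libraries allow). The 4 pool KO and WT libraries and are not replicates of a single condition. The sets compared were chosen on their H3K4me1 calls and differ in width, so no conclusion is drawn from this p-value. Shared regions are wider, so the KO peaks were also compared at equal width and fold, in 16 bins. The shared KO peaks then overlapped H3K27ac at 20.7% and 21.5% in KO and 38.1% and 40.6% in WT, still above the gained ones in all 4 libraries.

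**Figure D3:**
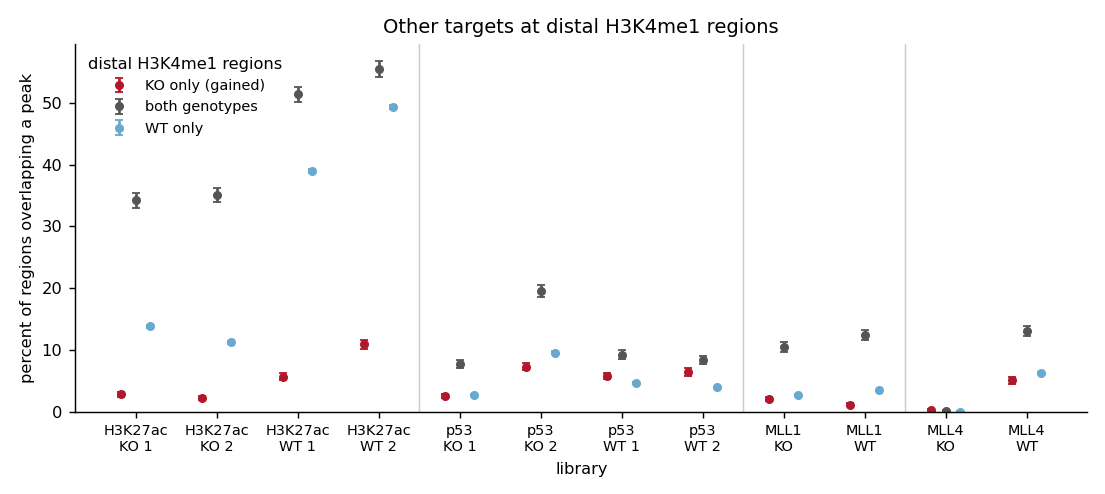
Percent of distal H3K4me1 regions that overlap a peak of each other library (vertical axis; libraries along the horizontal axis, KO left of WT), for regions found in KO only, in both genotypes and in WT only, with 95% Wilson intervals for counting error. Gained regions are the lowest of the 3 kinds in each of the 4 H3K27ac libraries, from 2.22% to 10.9%.

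In detail, 5861 gained regions (86.7%) had no H3K27ac in any library, against 33.8% of shared and 45.5% of WT-only distal regions. H3K27ac was called in both KO libraries and no WT library at 43 gained regions (0.636%), where the background over all H3K4me1 regions was 0.704%. It was called in both WT libraries and no KO library at 265 (3.92%), where the background was 16.2%. The low second share goes with the few gained regions that had H3K27ac in WT. H3K27ac was called in both WT libraries at 353, and 265 of these (75.1%) had it in no KO library. Among all H3K4me1 regions, which include those with H3K4me3, that last share was 38.9%, and it was not computed for distal regions alone. H3K27ac in both WT libraries and no KO library stood at 12.3% of shared and 20.7% of WT-only distal regions. In all, 28 had H3K27ac in all 4 libraries.

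H3K27ac was more frequent at gained regions with H3K4me1 of WT cells nearby. Where the nearest WT H3K4me1 peak was under 1 kb away, H3K27ac overlapped 6.62% and 5.55% in KO, against 10.1% and 18.3% in WT. At 1 to 5 kb it was 2.51% and 2.07% in KO, against 6.35% and 12.3% in WT. At 20 kb and over it was 0.412% and 0.330% in KO, against 1.65% and 3.13% in WT. The share fell with distance in all 4 libraries, while the median fold of the gained H3K4me1 peaks changed from 3.28 to 3.24 and their median width from 411 to 368 bp.

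**Figure D4:**
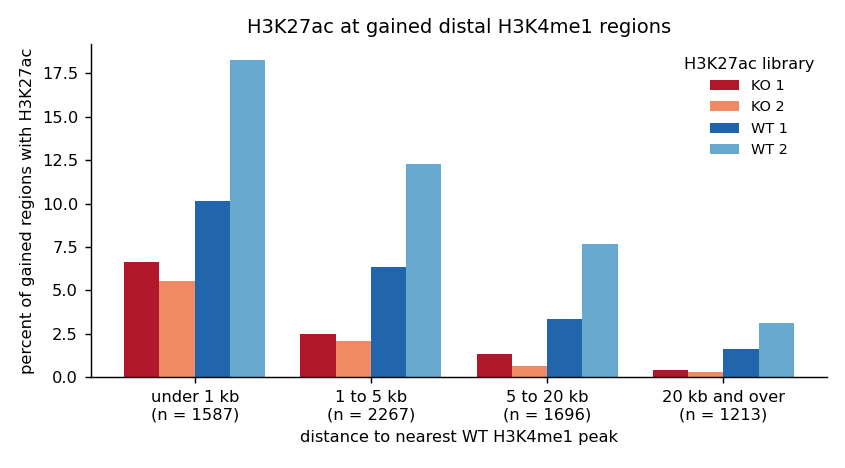
Percent of gained distal H3K4me1 regions that overlap an H3K27ac peak (vertical axis, starting at 0) by distance to the nearest WT H3K4me1 peak (horizontal axis, number of regions in brackets), with a bar for each KO and WT library. The bars run from 6.62% and 5.55% in KO under 1 kb to 0.412% and 0.330% in KO at 20 kb and over.

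Among the 43 regions with H3K27ac in KO only, the highest was inside KDM3A, a demethylase of H3 lysine 9, at chr2:86440096-86440580. Its H3K27ac folds were 29.9 and 30.8 in KO, with no peak in either WT library, and its H3K4me1 fold was 4.04. Next came a region 6142 bp from DKK1, a secreted Wnt inhibitor, with H3K27ac folds of 14.4 and 18.0 in KO, and a region 10394 bp from LAMA3, a laminin chain, with 14.2 and 13.6. VMP1, a membrane protein needed for autophagy, held a region with 11.5 and 15.3. The 2 at PRKACB had 8.19 and 13.7, and 10.8 and 10.3. DCBLD2 and SMIM3 each had a region near or inside them with mean H3K27ac folds of 10.6 and 10.04. None of these had MLL1 or p53 in any library, and all 10 of highest H3K27ac fold except 1 at PRKACB lay within 367 bp of a WT H3K4me1 peak.

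MLL1 overlapped 133 gained regions (1.97%, 1.66 to 2.33) in KO and 72 (1.06%, 0.846 to 1.34) in WT. The KO list was shorter, with 28515 peaks against 36419 in WT, but covered more, 1.02% of the chromosomes against 0.734%. For MLL1 peaks with −log10 q-values from 5 upwards, the shares were 0.725% in KO and 0.414% in WT. With 1 MLL1 library per genotype the difference has no test. MLL1 was called in KO and not WT at 113 gained regions (1.67%), where the background over all H3K4me1 regions was 4.61%, and in WT and not KO at 52 (0.769%), where the background was 4.33%. That background includes regions with H3K4me3. Among WT-only distal regions these shares were 2.30% and 3.05%. Shared distal regions had MLL1 at 10.4% in KO and 12.4% in WT, and shared KO peaks of equal width and fold had 5.41% in KO and 5.23% in WT. WT-only distal regions had it at 2.71% in KO and 3.46% in WT. Nearly all gained regions thus had no MLL1 call, in KO or in WT, and most other distal regions had none either.

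The gained regions with MLL1 in KO had a median H3K4me1 fold of 3.53, against 3.25 for those without, and 12.03% and 8.27% of them had H3K27ac in the KO libraries, against 2.62% and 2.097%. The highest MLL1 fold in KO with none in WT, 44.8, lay 207 bp from ZNF25 at chr10:37976854-37977517, with H3K27ac folds of 25.7 and 19.8 in KO, against 44.8 in WT replicate 1 and no peak in WT replicate 2. Regions near DEPDC1 (743 bp away, MLL1 fold 36.5), STRAP (1261 bp, 34.03) and ANKEF1 (419 bp, 15.7) and inside LGMN, the protease legumain (26.5), followed. The regions near ZNF25, DEPDC1, STRAP and ANKEF1 overlapped the non-coding genes ZNF25-DT and DEPDC1-AS1, an uncharacterised locus and SNAP25-AS1. Further from genes, regions near MKX (10.1), TMEM131 (9.07), CCDC200 (7.77) and inside TBX4 (7.77) completed the set that can be named, apart from a region near an uncharacterised locus on chromosome 2 (7.95). All 10 except those at ZNF25, DEPDC1, STRAP and ANKEF1 had p53 in at least 1 library.

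p53 overlapped 167 gained regions (2.47%) in KO replicate 1 and 494 (7.30%) in KO replicate 2, against 389 (5.75%) in WT replicate 1 and 433 (6.40%) in WT replicate 2. The KO libraries lay on either side of the WT ones, with a difference of −1.19 percentage points (two-sided exact permutation p = 1, where the smallest is 0.333), and without KO replicate 1 the sign turned, to 1.23. The p53 lists differ in length, from 24766 peaks in KO replicate 1 to 61530 in KO replicate 2. With all 4 lists held to 24766 peaks the shares were 2.47% and 4.08% in KO, against 4.60% and 4.91% in WT, and the groups no longer overlapped (difference −1.48, exact permutation p = 0.333, the smallest possible). The same held for p53 peaks of −log10 q-value 5 and above, with a difference of −2.05. With full lists the KO minus WT difference was 4.83 points at shared and 1.88 at WT-only distal regions, where the KO libraries also lay on either side. The shortened lists were not applied to those regions, so whether the separation is particular to gained regions was not tested. p53 was called in both KO and no WT library at 10 gained regions (0.148%), where the background was 1.44%, and in both WT and no KO library at 63 (0.932%), where the background was 0.352%. These differences from the background were not tested. p53 was called in all 4 libraries at 138 gained regions (2.04%), against 4.52% of shared, 1.56% of WT-only and 6.39% of all H3K4me1 regions. At these 138, MLL1 was called in KO at 37.0%, against 0.574% of the 6096 gained regions with no p53 in any library. MLL1 was not split by p53 at other regions, so whether this is particular to gained regions was not tested.

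MLL4 itself had been called in WT at 341 gained regions (5.04%), against 12.998% of shared and 6.26% of WT-only distal regions. Shared regions are wider, and their KO peaks overlapped MLL4 of WT at 5.72%, or 4.90% at equal width and fold, close to the gained share. MLL4 was called in KO at 18 gained regions (0.266%), against 0.113% of shared and 0.012% of WT-only distal regions. The 18 held 20 of the 257 MLL4 peaks of KO (7.78%). Of these 18 regions, 7 lay on chromosome 21, and 1 lay inside a coding gene. Of the 7, 6 fell in the window of repeated sequence on the short arm described below, where calls could not be assigned to a single copy. Most of the 18 also overlapped a peak of MLL1 or p53. The lowest H3K4me1 fold of all gained regions, 1.41, was among them. Whether these calls reflect MLL4 binding in KO was not tested. In all, 5298 gained regions (78.3%) overlapped no peak in any of the 12 H3K27ac, MLL1, p53 and MLL4 libraries. The share was 37.8% of all H3K4me1 regions, 29.3% of shared and 43.6% of WT-only distal regions, with widths not matched.

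The gained regions of highest fold were mostly on chromosome 1. Of 9 with a fold of at least 9, 8 lay on chromosome 1 between 14.8 and 52.8 Mb, although that chromosome held 653 of all 6763 (9.66%), and they were 207 to 666 bp wide. Below that fold the chromosome did not stand out, with 5 of the 65 gained regions of fold 5 to 9 (7.69%). The same held for the whole list: 52 of 141 KO H3K4me1 peaks of at least 9-fold (36.9%) lay on chromosome 1, against 594 of 5355 in WT (11.1%). Among the highest were those inside IFFO2 (25.3, chr1:18909377-18909659), inside ZYG11A (24.2, chr1:52842532-52843197), inside KAZN (16.3), inside TAL1, a transcription factor of blood cells (12.6), 8170 bp from LAPTM5, a lysosomal protein of blood cells (12.03), and 3896 bp from RAP1GAP (11.5). Another on chromosome 1 had no coding gene within 100 kb (9.04), and the one outside it was on chromosome 20, 40310 bp from PCMTD2 (9.39). H3K27ac was called at 1 of the 9 in KO replicate 1 and none in KO replicate 2, against 3 and 7 in the WT libraries, and MLL1 at none in either genotype. p53 was called in all 4 libraries at 2 of the 9 and at 15 of the 65 of fold 5 to 9 (23.1%). Under fold 3.5 that share was 1.04%. MLL1 was called in KO at 9 of the 65. The reason for the placement on chromosome 1 was not tested.

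After these came regions near MOCS2 (6.74) and inside RASAL3 (7.34), ITCH, a ubiquitin ligase (6.72), and 2 near uncharacterised genes on chromosomes 5 (8.34) and 15 (7.13), and at PLA2G2C (6.69). The regions at RASAL3 and ITCH had p53 in all 4 libraries, with folds of 8.17 and 10.8 in KO, against 11.3 and 26.1 in WT, at RASAL3.

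Of the 10 widest gained regions, 9 had folds under the 95th percentile of 4.14, and the exception was in LHX2. The first, of 5451 bp and 3.49-fold, lay inside HSPH1, a heat shock protein (chr13:31145432-31150882), and had no peak of any other target. RAD21, a cohesin subunit (3391 bp, 3.65-fold), SEC31A, of the COPII coat (2502 bp, 3.24-fold), COX6C, of the respiratory chain (2390 bp, 3.30-fold), and ANXA8 (2661 bp, 3.68-fold) held such regions too, also without other targets. Those in VIM, the filament protein vimentin (3263 bp), NAA15, of the N-terminal acetyltransferase (2998 bp), and LHX2, a homeobox factor (2713 bp, 4.43-fold), had MLL1 in KO and not in WT, with folds of 4.49, 4.35 and 4.53. The other 2 lay on chromosome 21 at 8.2 Mb and on chromosome 16 near TP53TG3B, a member of a duplicated gene family whose reads cannot be placed with certainty, with MLL1 in KO at both, MLL1 in WT at the one on chromosome 16, and p53 in both WT libraries and in KO replicate 2 at both.

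Along the chromosomes many gained regions lay in loose groups. The median gap between neighbours was 204723 bp, and a neighbour within 100 kb was found for 3641 (53.8%), against 150836 bp and 62.3% for shared and 9156 bp and 98.4% for WT-only distal regions, the last being far more numerous. They formed 82 runs of at least 5 with such spacing, the longest of 16, against 140 runs and 18 for shared regions. Density was 3.79 per Mb on chromosome 21, 3.59 on chromosome 17 and 3.02 on chromosome 20, and lowest at 1.53 on chromosome 13. Shared regions had 2.27, 4.96, 3.51 and 1.01 per Mb on these chromosomes, so chromosome 21 had 1.67 gained regions for each shared one and chromosome 19 had 0.475.

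**Figure D5:**
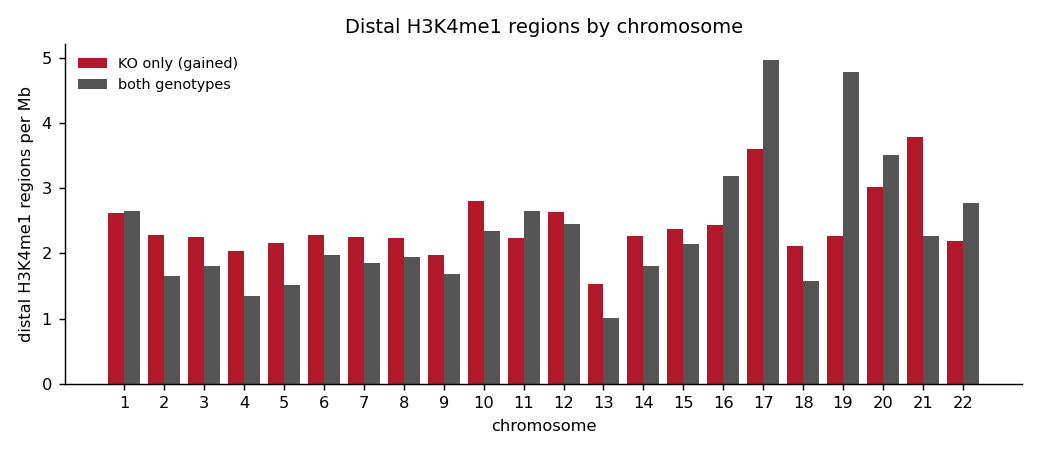
Distal H3K4me1 regions per Mb (vertical axis, starting at 0) on chromosomes 1 to 22 (horizontal axis), for regions found in KO only and in both genotypes. Chromosome 21 has the highest density of gained regions, 3.79 per Mb against 2.27 for shared ones. Of its 177 gained regions, 22 lie in the repeated sequence from 8 to 9 Mb. Chromosomes 1, 11, 16, 17, 19, 20 and 22 have more shared than gained regions.

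The densest windows of 1 Mb were of 2 kinds. The window from 8 to 9 Mb of chromosome 21, on the short arm where ribosomal RNA genes lie, had 22 gained regions, 2 shared and no WT-only distal regions, and MLL1 was called at 8 in KO and 7 in WT, MLL4 at 6 in KO, and H3K27ac at 0 in both KO libraries, against 6 and 12 in WT. Sequence there is repeated, so the calls could not be assigned to a single copy. The other windows held coding genes and few or no gained regions with H3K27ac or MLL1. MLL4 in WT was not counted by window. On chromosome 21, the 3 windows from 31 to 34 Mb had 38 gained regions (12.7 per Mb) with folds of 2.80 to 5.09, at TIAM1, SCAF4, HUNK, EPCIP, MIS18A, PAXBP1, OLIG1, OLIG2, ITSN1, IL10RB and GART; H3K27ac was called at 1 and 2 of the 38 in KO, against 1 and 2 in WT, and MLL1 at 0 in KO. Chromosome 16 from 69 to 70 Mb had 13, at NFAT5, CYB5B, TERF2, WWP2 and SNTB2. Windows with 11 each lay on chromosome 4 at 94 Mb (PDLIM5, BMPR1B and SMARCAD1) and chromosome 8 at 26 Mb (PPP2R2A and EBF2).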

How the data were processed

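Peak lists of MLL4-KO and WT HCT116 cells were analysed, 1 for each of 18 ChIP libraries; inputs were not used. Per the submitters' processing notes, peaks were called with MACS2 2.1.1 on hg38, and per the file headers and peak names each library was called alone against the input of its genotype. The aligner is not given in the sources used here, nor is the depth. The deposited lists give the authors' fold enrichment, a ratio over local background, −log10 of its p-value and of its q-value, and a score of 10 times the −log10 q-value. The H3K4me1 lists are broad (q of 0.1) and the others narrow (q of 0.05). Fold and q-values were used only to describe, rank and filter peaks.

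Lists were merged and overlapped at 1 bp on chromosomes 1 to 22 with Python 3.11.15, numpy 2.4.6, pandas 2.3.3 and scipy 1.17.1, and the code was tested on simulated data. Genes and promoter windows are from RefSeq (GRCh38.p14). KO and WT shares were compared by exact permutation over libraries. The named genes were the 20 with the most gained regions, the regions of highest fold (15), width (10) and gained H3K27ac or MLL1 fold (10 each), the 8 densest windows, up to 2 genes for each list, and fixed genes. The regions, lists and rule were chosen with earlier results of these data known. The marked starts and leaving out chromosomes 1 and 21 were added after the values were seen. Replicate numbers did not pair the libraries, as given in the closing section. No genome was used, so the gained regions' own sequences were not read. A few of the genes and regions chosen this way are not reported here.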

Additional observations from a re-analysis of the deposited data

How the results depend on the processing

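The number of gained regions stayed within 1.5 times of 6763 under each definition tried except those with stricter q-values. It was 1606 with KO peaks at a −log10 q-value of at least 2, 67 at 5 and above, and 1732 with both lists at 2 and above. Leaving out each H3K4me3 library gave 6767 to 7049. For KO peaks at 2, KO peaks at 5, both lists at 2, and H3K4me1 lists of equal length, the share with MLL1 in KO was 4.67%, 14.9%, 5.08% and 2.74%, the share with a neighbour within 100 kb 19.4%, 5.97%, 21.2% and 66.4%, the share inside coding genes 62.7%, 41.8%, 62.5% and 63.04%, and the downstream share near marked starts 75.5%, 16.7%, 75.2% and 75.3%. With regions over 1 kb from gene ends MLL1 was at 1.65% and neighbours at 51.95%. With no WT peak within 1 kb neighbours were at 46.1%, and with KO peaks under 50% covered by WT peaks they were at 58.99%, with 64.2% inside coding genes. MLL1 peaks of −log10 q of at least 5 gave 0.725%, and neighbours within 50 and 25 kb gave 37.1% and 25.2%. Leaving out each H3K4me3 library gave 53.8% to 55.2% with neighbours.

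The KO minus WT difference in H3K27ac was negative under all alternatives, −0.658 points with lists of equal length (exact permutation p = 0.667) and −8.38 to −3.13 points leaving out each H3K27ac library. The p53 difference was negative in every definition of the regions, and −3.61 to 1.23 points leaving out each p53 library; it was positive without KO replicate 1. It was −1.48 points with p53 lists of equal length and −2.05 with p53 peaks of −log10 q of at least 5 (exact permutation p = 0.333 for both), where the groups did not overlap. With the replicate number as a block, the differences were −5.76 points for H3K27ac (exact sign-flip permutation p = 0.5) and −1.19 for p53 (p = 1), where 0.5 is the smallest p for 2 pairs. Numbers did not pair the libraries: deviations of log2 fold between same-numbered libraries correlated at −0.07 for H3K27ac and 0.03 for p53.

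A region is gained if it passed the calling limit in KO and not in WT, in 1 library each, so a small difference in depth or enrichment near that limit can move it, and depth is not known. Most gained regions lie near the limit.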
